A study of Homo sapiens with 15 samples.

Results

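Gene expression of A549 cells exposed to the highest concentration of dimethylamine vapour was compared with that of cells exposed to the middle concentration. The comparison holds 6 of the 15 samples of the series, chosen by their labels alone: 3 high dose (HD) samples exposed to 81.7 ppm and 3 mid dose (MD) samples exposed to 41.1 ppm. The other samples were low dose (LD, 14.9 ppm), a clean air control (CA, flow at 0 ppm) and a non-exposed control without flow (NEC), with 3 samples each. A549 is a human lung adenocarcinoma line of epithelial origin, grown here on porous membranes at the air-liquid interface. All exposed and CA cultures received 3 exposures within 72 h, each of 1 h at 3 ml/min per cm2 followed by 23 h of recovery, and a sample pooled 2 wells. HD differed from MD in concentration and in exposure plate number, which was 6 for all HD samples and 5 for all MD samples.

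Dimethylamine is a small volatile amine and a base that irritates the airways. Epithelial cells under chemical or proteotoxic stress are known to switch on the integrated stress response, in which phosphorylation of the initiation factor eIF2 slows protein synthesis while stress transcription factors are made. Other well described programmes of stressed epithelium are the mechanical and wound response driven by YAP, growth factor signalling through EGFR, and inflammatory signalling through NF-kB.

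Levels are given as negative ΔCT, which is the mean threshold cycle of the normalisation genes GPN1 and TMEM184C minus that of the gene. They are on a log2 scale, so that 1 unit stands for about 1 doubling of RNA and a higher level for more RNA. Of 296 panel genes, 286 gave a product in the series and 284 could be tested between HD and MD. The study drew most of the panel from genes that had responded at HD on other platforms in the same RNA, so shares of called genes are not those of unselected genes. Between 282 and 286 genes were detected per sample. Of the lung epithelial marker lists, CDH1 and KRT18 were on the panel and detected in every sample, whereas no surfactant or other alveolar type marker, no fibroblast marker and no endothelial marker was on it. The general epithelial label could therefore be checked with these 2 genes only. Of 8 markers of ciliated epithelium, TPPP3 and CFAP53 were on the panel, and neither was called between HD and MD. TPPP3 was detected in every sample and CFAP53 in all but HD replicate 1. The 1 leukocyte marker on the panel, CD79A, was detected in every sample, with levels of 1.41 to 1.70 in HD, against 1.41 to 1.91 in MD, and its part in the results was not tested. These are whole cultures, so fewer cells that express a gene and less RNA per cell cannot be told apart.

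HD replicate 1 stood apart in how late its wells ran. Its median CT over all detected assays was 26.1, against 25.5 and 25.2 in the other HD samples and 25.2, 25.4 and 25.4 in the MD samples. The normalisation genes moved with it. GPN1 had a CT of 25.9, 25.5 and 25.4 in HD, against 25.2, 25.3 and 25.4 in MD, and TMEM184C had a CT of 25.3, 24.6 and 24.5 in HD, against 24.3, 24.5 and 24.6 in MD. Both normalisation genes thus averaged later in HD (25.2 ± 0.33 over the pair) than in MD (24.9 ± 0.14; SD, n = 3 each). Without any normalisation gene the median difference of all tested genes was -0.36, against -0.04 with them, and results below are relative to the normalisation genes.

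**Figure D1:**
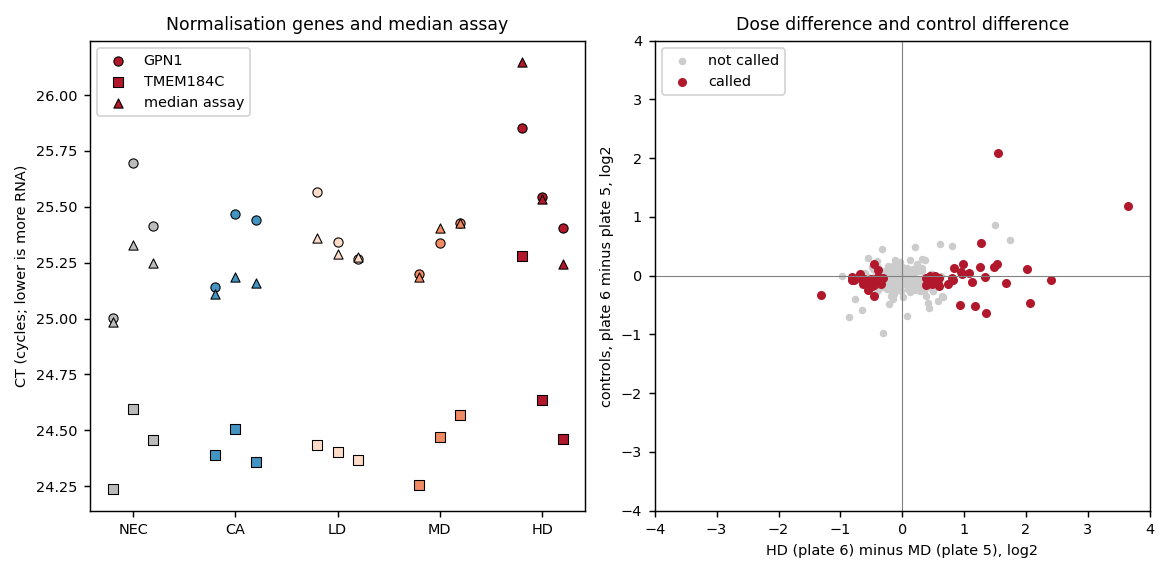
Left, threshold cycle of the normalisation genes and of the median detected assay in each of 15 samples (3 per group, drawn in replicate order). Right, the log2 difference between HD and MD of each tested gene against the difference between plates 6 and 5 in the controls (mean of the CA and NEC differences). HD replicate 1 lies highest on the left, with a median assay at 26.1, and most called genes lie near 0 on the vertical axis of the right panel.

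Of the 284 genes, 58 passed an adjusted p of 0.05 between HD and MD, which is 20.4% of those tested, and these genes are referred to as called. Higher levels in HD were called for 35 genes (12.3%) and lower levels for 23 (8.10%). The higher calls were larger: 17 of them exceeded a 2-fold difference, whereas only PZP did so among the lower calls. Without any adjustment 106 genes had a p under 0.05. The levels of HD and MD samples did not overlap for 122 genes (43.0%), of which 59 were higher (20.8%) and 63 lower (22.2%) in HD. Among the called genes only ZNF165 had overlapping groups.

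The exposure plate cannot be told apart from the dose among the exposed samples, and only the CA and NEC samples, with 1 of each per plate, measured it. In these controls plates 6 and 5 differed by a median of 0.12 (log2) over the tested genes. This value is regardless of sign, after the CA and NEC differences of a gene were averaged. Opposite differences thus cancelled, as in BHLHE41, with 0.61 in CA and -0.39 in NEC. Of the 56 called genes that had a control value, 55 differed more between HD and MD than between the plates in the controls. The exception was PSG4, whose control difference of 2.09 exceeded its dose difference of 1.55. For PSG4 this was the CA difference alone, because NEC replicate 3, on plate 6, gave no product. It used CA replicate 2, on plate 5, which ran late with a CT of 34.1. Called genes were selected for a large difference between HD and MD, so this count was largely fixed in advance and does not measure the plate. With the plate as a block, which takes the plate difference from these 6 controls, the median SE grew to 0.22, against 0.16 without it, and 11 of 282 genes (3.90%) were called, all higher in HD. Of these, 9 were also called without the block: ANKRD1, ARL14, BEX2, CTNNAL1, DDIT3, DHRS2, EGR2, NAV2 and ZNF555. All 56 called genes that could be fitted with the block kept their sign. The block takes about the control difference from the dose difference, so this count too was largely fixed in advance.

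**Figure D2:**
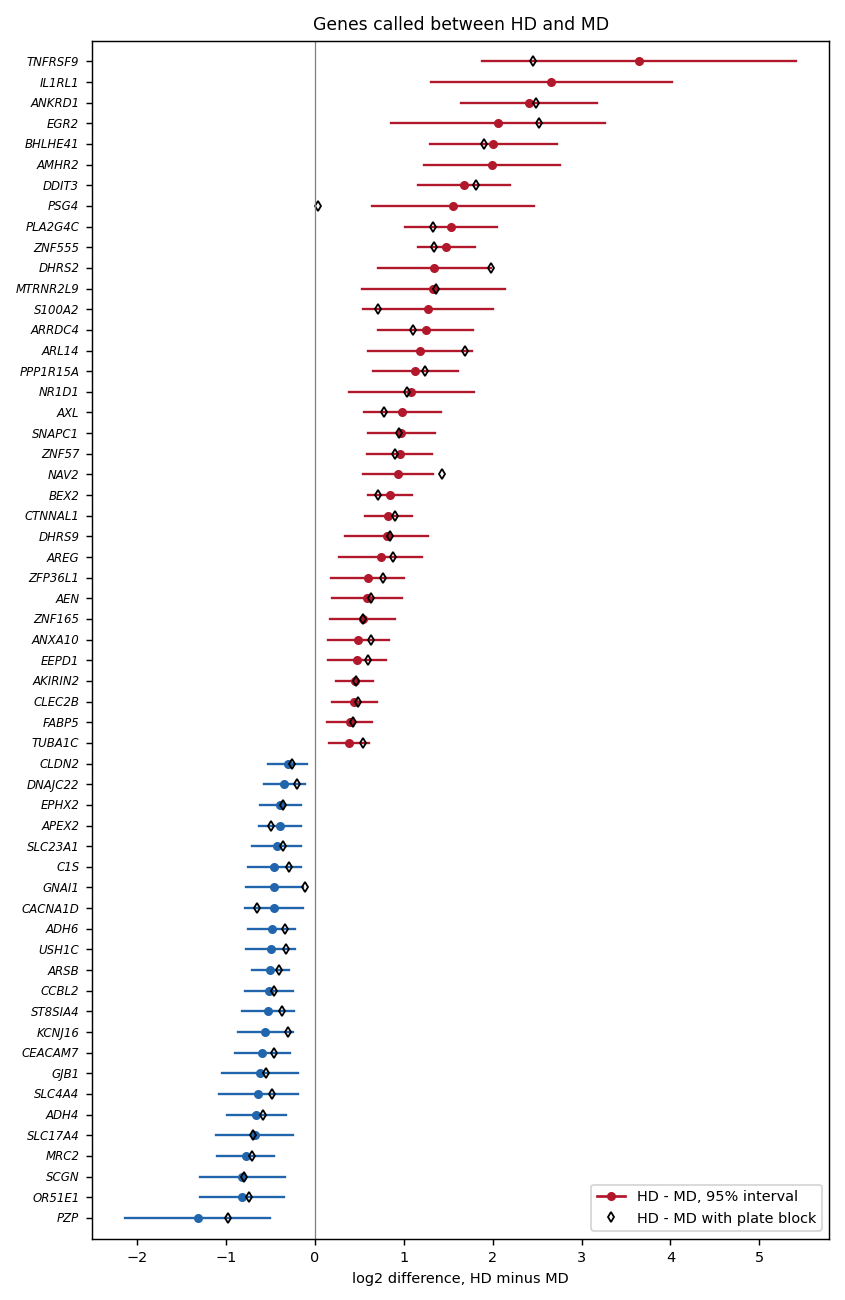
Log2 difference between HD and MD of 57 of the 58 called genes with 95% confidence interval (filled points, red higher and blue lower in HD) and the value with the exposure plate as a block (open diamonds; none for AMHR2 and IL1RL1, which were not detected in enough controls). The diamonds lie on the same side of 0 as the points for all 55 genes that have them, and that of PSG4 lies at 0.04. Called genes were selected for a large difference, which largely fixed the side.

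Of the 58 calls, 20 held when each of the 6 HD and MD samples was left out in turn, 18 of them higher and 2 lower in HD. The other 38 left the threshold in at least 1 of these fits. No call that could be fitted changed sign, which the lack of overlap between HD and MD fixed in advance for all but ZNF165. Without HD replicate 1, the late sample, 33 genes were called, 25 higher and 8 lower in HD. Leaving out MD replicate 1 removed 34 calls, MD replicate 2 32, HD replicate 2 27, HD replicate 1 26, HD replicate 3 13 and MD replicate 3 8. The study had set MD replicate 3 aside as an outlier on its sequencing platform. Without it 68 genes were called here.

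Of 4 tested genes of the integrated stress response 2 were called, both higher in HD, beside 12.3% called higher over all genes tested. DDIT3 encodes the transcription factor CHOP. Its level was 2.60, 2.24 and 2.55 in HD samples, against 0.45, 0.51 and 1.38 in MD samples. All HD samples lay above all MD samples, although MD replicate 3 stood well above the other MD samples. The difference of 1.68 ± 0.24 (log2 difference ± SE, as in all that follow) corresponded to 3.21-fold (adjusted p = 0.000806). PPP1R15A encodes GADD34, which brings a phosphatase to eIF2 and so restores translation. Its level was 0.67, 0.73 and 1.38 in HD, against -0.46, -0.39 and 0.23 in MD (difference 1.13 ± 0.22, 2.19-fold, adjusted p = 0.00451). MD replicate 3 was again the highest MD sample. Across the groups DDIT3 averaged 0.35 in NEC, 0.30 in CA, 0.36 in LD, 0.78 in MD and 2.46 in HD, so the step between the top doses was larger than all steps below it. Both calls held without each sample in turn. With the plate as a block the DDIT3 difference was 1.81 (adjusted p = 0.0166) and that of PPP1R15A 1.24 (adjusted p = 0.0683).

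The other tested members of the stress response list did not pass. CHAC1, an enzyme that degrades glutathione, differed by 0.47 ± 0.21 (adjusted p = 0.122), with levels of -2.12, -2.03 and -2.33 in HD, against -2.76, -2.77 and -2.37 in MD. The secreted stress cytokine GDF15 differed by 0.13 ± 0.27 (95% interval -0.46 to 0.72), and its groups overlapped. The list had a median difference of 0.80, against -0.04 over all genes tested. For both of these genes the MD mean lay nearer to HD than to CA, for CHAC1 at -3.83 in CA, -2.63 in MD and -2.16 in HD.

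The promoters of DDIT3 and PPP1R15A are shown because these were the called members of that list. They are RefSeq sequences (GRCh38.p14) from 250 bases before to 50 bases after the start, read 5′ to 3′ on the gene's strand. That of DDIT3 covers chr12:57520465-57520764 on the minus strand, and that of PPP1R15A chr19:48872171-48872470 on the plus strand. Capitals mark a match to TGANTCA, the AP-1 motif, in DDIT3 and to TGACGTCA, the cyclic AMP response element, in PPP1R15A.
DDIT3: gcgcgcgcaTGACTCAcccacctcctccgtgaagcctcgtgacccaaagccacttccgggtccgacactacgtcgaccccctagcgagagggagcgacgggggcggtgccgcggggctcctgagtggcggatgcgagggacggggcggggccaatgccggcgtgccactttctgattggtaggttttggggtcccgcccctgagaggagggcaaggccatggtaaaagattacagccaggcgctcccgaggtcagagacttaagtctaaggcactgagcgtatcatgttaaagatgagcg
PPP1R15A: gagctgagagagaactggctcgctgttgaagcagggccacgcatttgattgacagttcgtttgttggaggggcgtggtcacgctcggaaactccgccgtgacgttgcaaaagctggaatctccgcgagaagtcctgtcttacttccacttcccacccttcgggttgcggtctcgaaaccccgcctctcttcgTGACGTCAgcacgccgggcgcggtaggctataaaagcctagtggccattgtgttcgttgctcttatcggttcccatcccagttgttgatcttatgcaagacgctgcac
The AP-1 match lies 241 bases and the cyclic AMP element 58 bases before the start. On either strand TGANTCA occurs in 7.76% of 27305 promoters of this length and in 12.2% of the 222 panel promoters that could be matched by symbol. TGACGTCA occurs in 1.98% of all and 3.15% of panel promoters. Of the 35 genes called higher, 28 had a promoter in the table, of which 6 held TGANTCA and 2 TGACGTCA.

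Of the 4 tested members of the YAP and TGF-beta list, 3 were called, all higher in HD (12.3% over all genes), with a list median of 1.49. The list counts AMHR2, which encodes a receptor rather than a target. Over the other members, ANKRD1, AXL and ACTA2, the middle difference was 0.98, that of AXL. With the plate as a block their median was 0.78, and AMHR2 could not be fitted. ANKRD1, an ankyrin repeat protein of muscle and stressed epithelium and a standard readout of YAP, had levels of -1.72, -1.68 and -0.88 in HD, against -3.86, -4.08 and -3.57 in MD. The groups were far apart, with HD replicate 3 highest. The difference was 2.41 ± 0.35 (5.31-fold, adjusted p = 0.000806) and 2.49 with the plate as a block (adjusted p = 0.0117). Group means were -4.43 in NEC, -4.76 in CA, -4.45 in LD, -3.84 in MD and -1.43 in HD. AXL, a receptor tyrosine kinase, was at -0.20, -0.07 and 0.45 in HD, against -1.17, -0.89 and -0.71 in MD (difference 0.98 ± 0.20, adjusted p = 0.00543). All AXL values of HD lay above those of MD. ACTA2, smooth muscle actin, differed by 0.18 ± 0.20 with overlapping groups (95% interval -0.25 to 0.61).

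AMHR2, the receptor of anti-Müllerian hormone, was not detected in any CA or NEC sample and in only 1 LD sample. It was found in all HD and MD samples, at -5.94, -7.21 and -6.27 in HD, against -8.60, -8.18 and -8.62 in MD. The groups did not overlap, and the difference was 1.99 ± 0.32 (3.98-fold, adjusted p = 0.00784). It could not be fitted with the plate as a block, because no control sample gave a product. AXL, ANKRD1 and AMHR2 held without each sample in turn.

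The promoter of ANKRD1 is shown because it had the largest difference on the YAP and TGF-beta list. It covers chr10:90921038-90921337 on the minus strand, and capitals mark matches to GGAATG, the motif bound by TEAD factors, the partners of YAP.
ANKRD1: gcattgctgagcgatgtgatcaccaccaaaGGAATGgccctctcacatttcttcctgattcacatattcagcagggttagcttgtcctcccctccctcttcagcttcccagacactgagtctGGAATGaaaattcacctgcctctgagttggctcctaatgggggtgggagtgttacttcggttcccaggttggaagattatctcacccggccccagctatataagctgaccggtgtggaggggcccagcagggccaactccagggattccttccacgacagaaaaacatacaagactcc
The matches lie 220 and 128 bases before the start. This short motif is frequent, on either strand in 14% of all promoters and 12.2% of the panel promoters, and 3 of the 28 matched genes called higher held it.

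Of 6 tested circadian and developmental regulators 2 were called, both higher in HD (12.3% over all genes). BHLHE41, a repressor of the circadian clock, was at -1.94, -2.27 and -1.25 in HD, against -3.97, -3.95 and -3.57 in MD (difference 2.01 ± 0.33, 4.03-fold, adjusted p = 0.00172). Every HD sample was higher than every MD sample, and the call held without each sample in turn. The means below HD were nearly level, at -4.22 in NEC, -3.98 in CA, -3.87 in LD and -3.83 in MD, against -1.82 in HD. NR1D1, the clock repressor REV-ERB alpha, was at -3.75, -3.36 and -2.49 in HD, against -4.41, -4.44 and -4.01 in MD (difference 1.08 ± 0.33, adjusted p = 0.0337). This call was lost without HD replicate 2 or 3 or MD replicate 1 or 2, with an adjusted p of up to 0.111. HES1, a target of Notch, was at -0.78, -1.10 and -0.74 in HD, against -0.13, -0.36 and -0.28 in MD, and did not pass (difference -0.62 ± 0.22, adjusted p = 0.0673). The list median was 0.23, with -0.09 without normalisation genes and 0.46 with the plate as a block.

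The promoter of BHLHE41 is shown for its E-box, the clock motif CACGTG, in capitals. It covers chr12:26124988-26125287 on the minus strand.
BHLHE41: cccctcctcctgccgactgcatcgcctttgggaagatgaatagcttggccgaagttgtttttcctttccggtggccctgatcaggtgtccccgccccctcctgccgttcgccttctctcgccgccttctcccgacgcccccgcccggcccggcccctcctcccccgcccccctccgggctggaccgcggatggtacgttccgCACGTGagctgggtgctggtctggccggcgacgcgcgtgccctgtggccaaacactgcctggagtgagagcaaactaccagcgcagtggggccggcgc
The match lies 48 bases before the start. CACGTG was found in 7.43% of all promoters, 9.46% of the panel promoters and 5 of the 28 matched genes called higher.

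**Figure D3:**
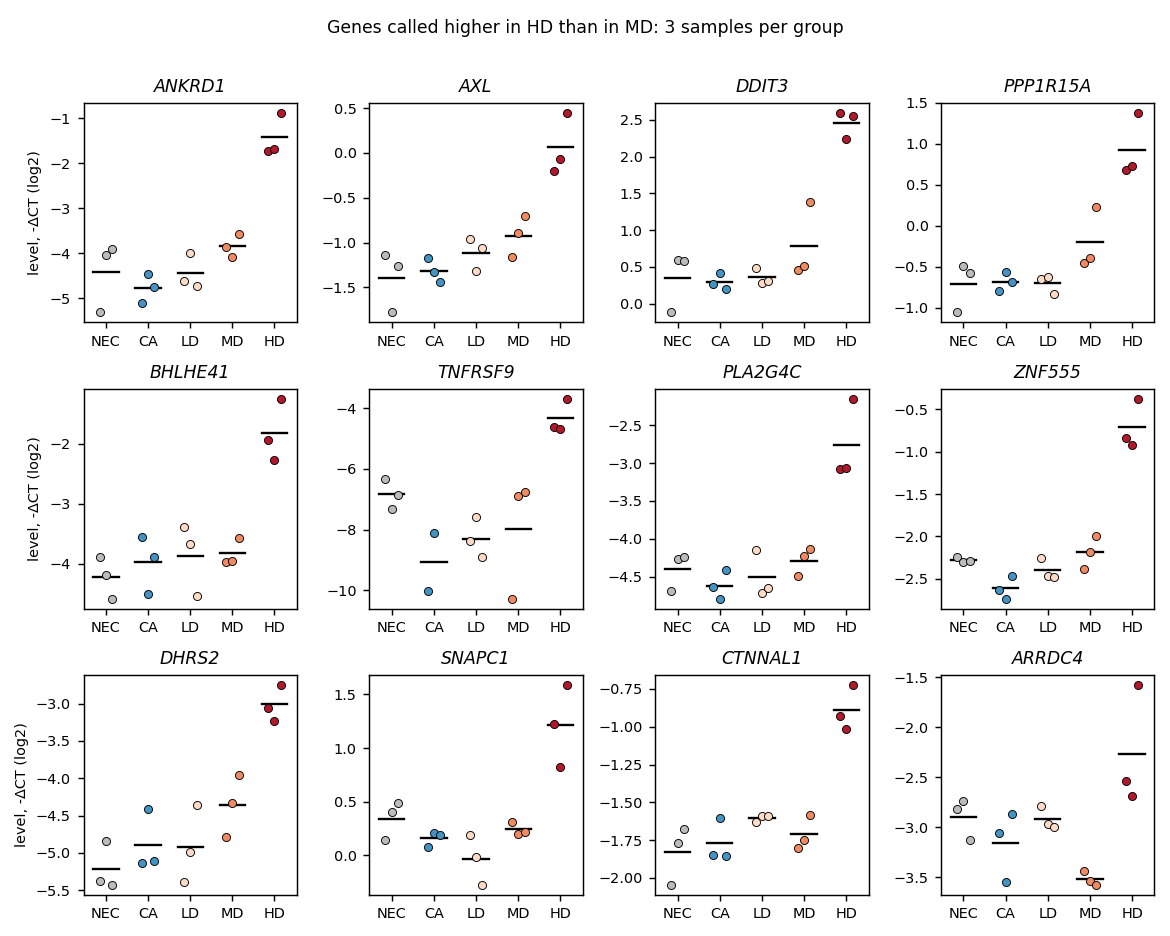
Level (negative ΔCT, log2) of 12 genes called higher in HD than in MD, in the 3 samples of NEC, CA, LD, MD and HD (points) with the group mean (lines). Wells without a product are not drawn. HD samples lie above all MD samples in each panel, and for BHLHE41, SNAPC1 and CTNNAL1 the MD mean lies close to those of CA and LD.

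Of 8 tested genes of NF-kB signalling and chemokines, 2 were called, both higher in HD, a count to be read beside 12.3% called higher and 20.4% called over all genes. Both encode receptors and were near the detection limit in MD. TNFRSF9, a member of the TNF receptor family, was at -4.63, -4.68 and -3.69 in HD, against -10.27, -6.90 and -6.76 in MD. HD samples lay above MD samples by a wide margin. The lowest MD value is a well above cycle 35 that the authors set to 35. With it the difference was 3.64 ± 0.81 (12.5-fold, adjusted p = 0.0105). Without MD replicate 1 the difference was 2.50 (adjusted p = 0.0158). It was also 2.50 with all wells above cycle 35 missing, that of CA replicate 2 among them (adjusted p = 0.00373). NEC samples averaged -6.83 and thus lay at the level of the other MD samples. LD samples were lower, at -8.37, -7.59 and -8.91. CA samples were lower too, at -10.01 and -8.11, and CA replicate 1 gave no product. With the plate as a block the difference was 2.46 (adjusted p = 0.288), and the controls of plates 6 and 5 differed by 1.19. Both values use the CA sample of plate 5, whose well was also above cycle 35 and set to 35.

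IL1RL1, which encodes the cytokine receptor ST2, was at -3.21, -2.91 and -2.86 in HD, against -6.66 and -4.65 in MD, where replicate 1 gave no product. It was not detected in NEC and in only 1 CA sample. The difference of 2.66 ± 0.55 from 2 MD samples passed (adjusted p = 0.0227), and was lost without any 1 of the HD samples (adjusted p of up to 0.0708). The chemokine CCL20 was at -1.84, -1.19 and -1.30 in HD, against -2.79, -1.81 and -1.71 in MD (difference 0.66 ± 0.60, adjusted p = 0.438). NFKB2 differed by 0.65 ± 0.25 (adjusted p = 0.0777) and BIRC3, an inhibitor of cell death, by 0.46 ± 0.17 (adjusted p = 0.0664). The list had a median difference of 0.55.

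Among 7 tested genes of EGFR ligands and the MAPK response, 2 were called higher in HD (12.3% over all genes) and the list median was 0.35. EGR2, an immediate early transcription factor, was at -4.10, -4.85 and -3.85 in HD, against -6.03, -6.61 and -6.34 in MD (difference 2.06 ± 0.55, 4.16-fold, adjusted p = 0.0227). Its MD mean of -6.32 was close to that of CA, -6.29. The EGFR ligand AREG was at 1.66, 1.44 and 1.28 in HD, against 0.46, 0.68 and 1.03 in MD (difference 0.74 ± 0.22, adjusted p = 0.03), whereas its means were -0.34 in NEC, -0.03 in CA and -0.10 in LD. EGR2 was lost without HD replicate 1 or 3 or MD replicate 1 or 2 (adjusted p of up to 0.0868), and AREG without HD replicate 1 or 2 or MD replicate 1 or 2 (up to 0.123). A related ligand, EREG, differed by 0.38 ± 0.23 (adjusted p = 0.251). HMGA1, a chromatin protein, differed by -0.41 ± 0.24 (adjusted p = 0.235).

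Of 4 tested p53 targets 1 was called, beside 12.3% called higher over all genes. It was AEN, an apoptosis nuclease, at 0.66, 0.92 and 1.03 in HD, against 0.05, 0.31 and 0.48 in MD (difference 0.59 ± 0.18, adjusted p = 0.0389). The call was lost without HD replicate 2 or 3 or MD replicate 1 or 2 (adjusted p of up to 0.144). MDM2, which degrades p53, averaged 2.53 in HD and 2.54 in MD, with an interval of the difference of -0.33 to 0.32. GADD45A differed by 0.44 ± 0.17 (adjusted p = 0.079). The death receptor FAS differed by 0.39 ± 0.18 (adjusted p = 0.139), and by 0.73 with the plate as a block (adjusted p = 0.0473).

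A phospholipase and 2 of 4 tested genes of the dehydrogenase and cytochrome P450 list were called, all higher in HD (12.3% over all genes). PLA2G4C, a cytosolic phospholipase, was at -3.07, -3.06 and -2.15 in HD, against -4.50, -4.23 and -4.14 in MD (difference 1.53 ± 0.24, adjusted p = 0.00116). Its MD mean of -4.29 was close to -4.61 in CA and -4.50 in LD. DHRS2, a short-chain dehydrogenase, was at -3.05, -3.23 and -2.75 in HD, against -4.79, -4.32 and -3.96 in MD (difference 1.35 ± 0.29, adjusted p = 0.00784), and both calls held without each sample. DHRS9, a retinol dehydrogenase, showed a different course: its means were -3.36 in NEC, -2.46 in CA, -1.17 in LD, -0.73 in MD and 0.08 in HD. Its difference of 0.81 ± 0.21 (adjusted p = 0.0221) was lost without HD replicate 1 or MD replicate 1 or 2 (adjusted p of up to 0.0868). The cytochromes CYP1B1 and CYP24A1 differed by 0.18 ± 0.13 and -0.08 ± 0.12, and neither was called. The list median was 0.49.

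ARRDC4, an arrestin domain protein that responds to glucose, was at -2.54, -2.69 and -1.58 in HD, against -3.44, -3.54 and -3.57 in MD. The HD samples spread widely, yet all lay above MD. The difference was 1.25 ± 0.25 (adjusted p = 0.00454), with an MD mean of -3.52 below that of CA, -3.16. No enzyme of glycolysis was called: of the 7 tested list members ARRDC4 was the single call (12.3% called higher over all genes), and PGK1 and LDHA differed by -0.02 ± 0.14 and -0.21 ± 0.12.

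Further calls that held without each sample were spread over unrelated functions. The zinc finger gene ZNF555 had the smallest adjusted p of all, at -0.84, -0.92 and -0.38 in HD, against -2.39, -2.18 and -2.0 in MD (difference 1.48 ± 0.15, adjusted p = 5.16e-05). Another zinc finger gene, ZNF57, differed by 0.95 ± 0.17 (adjusted p = 0.00263). SNAPC1, a subunit of the complex that transcribes small nuclear RNAs, was at 1.23, 0.82 and 1.59 in HD, against 0.31, 0.20 and 0.21 in MD (difference 0.97 ± 0.17, adjusted p = 0.00274). CTNNAL1, a catenin-like protein, was at -0.93, -1.01 and -0.72 in HD, against -1.80, -1.75 and -1.58 in MD (difference 0.82 ± 0.12, adjusted p = 0.000806). In SNAPC1 and CTNNAL1 the MD means of 0.24 and -1.71 were within 0.1 of those of CA, 0.16 and -1.77. The small GTPase ARL14 (1.18 ± 0.27), NAV2, a protein of neurite growth (0.94 ± 0.18), BEX2 (0.84 ± 0.12) and AKIRIN2, which carries proteasomes into the nucleus (0.45 ± 0.10), completed this set. AKIRIN2 replicates were tight, at 0.92, 0.87 and 1.00 in HD, against 0.48, 0.50 and 0.47 in MD.

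Calls among calcium-binding and cytoskeletal genes included some that 1 sample could remove. S100A2, a calcium-binding protein, was at -3.45, -4.09 and -3.63 in HD, against -4.20, -5.05 and -5.73 in MD (difference 1.27 ± 0.34, adjusted p = 0.0221), and was lost without HD replicate 1 or MD replicate 2 or 3 (adjusted p of up to 0.0754). It was the single call among 9 tested S100, keratin and EMP genes (12.3% called higher over all genes), whose median was 0.29 (-0.03 without normalisation genes). S100A6, S100A11 and EMP1 differed by 0.36 ± 0.20, -0.13 ± 0.13 and 0.35 ± 0.23. The tubulin TUBA1C was at 6.17, 6.25 and 6.18 in HD, against 5.79, 5.66 and 6.00 in MD (difference 0.39 ± 0.10, adjusted p = 0.0223). The TUBA1C call was lost without HD replicate 2 or MD replicate 1 or 2 (adjusted p of up to 0.106). Of 7 tested tubulin and cytoskeletal genes, among them ANKRD1, 2 were called, both higher (12.3% over all genes), with a median of 0.39.

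Further higher calls were ZFP36L1, which promotes mRNA decay, FABP5, a fatty acid carrier, ANXA10, EEPD1, CLEC2B and ZNF165, with differences between 0.39 and 0.59, and PSG4 and MTRNR2L9. Each of the 6 smaller calls was lost without MD replicate 1 or 2, and also without HD replicate 1 (all but ZNF165), HD replicate 2 (all but CLEC2B) or HD replicate 3 (ZNF165 and EEPD1), with an adjusted p of up to 0.162. PSG4 and MTRNR2L9 have close copies in the genome, so their assays may have read more than 1 gene. PSG4, a pregnancy glycoprotein, was at -5.56, -4.92 and -4.92 in HD, against -6.57, -6.58 and -6.90 in MD (difference 1.55 ± 0.42, adjusted p = 0.0227), and was lost without any sample except HD replicate 1 (adjusted p of up to 0.0694). MTRNR2L9 was at -0.04, -1.24 and -1.09 in HD, against -1.86, -1.92 and -2.60 in MD (difference 1.33 ± 0.37, adjusted p = 0.0241), and was lost without HD replicate 1 or any MD sample (up to 0.0948). With the plate as a block the PSG4 difference was 0.04 (adjusted p = 0.978).

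**Figure D4:**
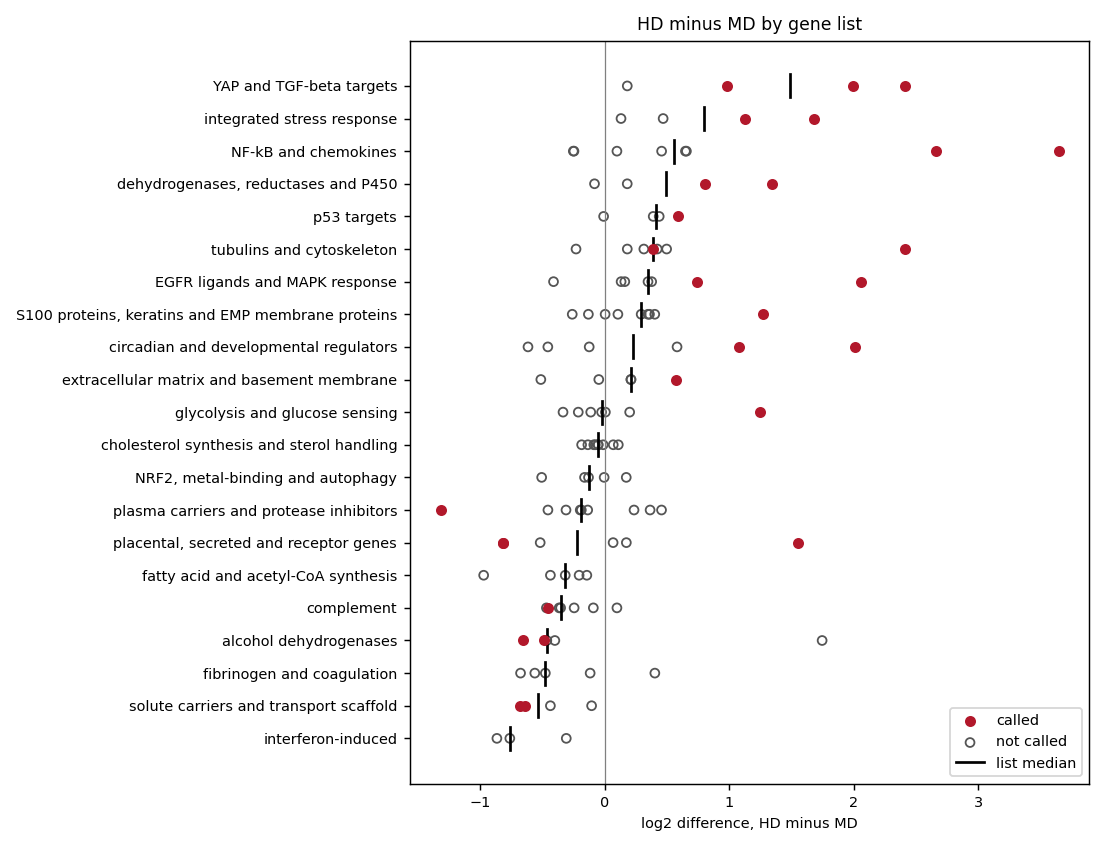
Log2 difference between HD and MD for the tested members of each gene list with at least 3 of them (filled, called; open, not called), with the list median as a bar. The list of YAP and TGF-beta targets, which counts the receptor AMHR2, lies furthest to the right, with a median of 1.49. Without AMHR2 its middle value is 0.98, and 0.78 with the plate as a block. Cholesterol synthesis and sterol handling genes cluster at 0.

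Without normalisation genes the list medians were lower throughout. This follows from the calculation, which takes about the same amount from every gene, and is not a trait of any list. They were 1.17 for the YAP and TGF-beta list, 0.48 for the stress response, 0.23 for NF-kB and 0.17 for dehydrogenases and cytochromes. The p53 targets were at 0.09, the cytoskeleton at 0.07 and EGFR ligands at 0.03. Among lists with a negative median, the value became -0.37 for cholesterol and sterol genes and -0.67 for complement. It became -0.78 for alcohol dehydrogenases and -0.86 for solute carriers and scaffolds.

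The lower calls were smaller, between -1.32 and -0.31. MRC2, an endocytic receptor for collagen, and ARSB, a lysosomal sulfatase, were those that held without each sample. MRC2 was at -4.10, -4.03 and -3.57 in HD, against -3.05, -3.07 and -3.23 in MD (difference -0.78 ± 0.15, 1.72-fold lower, adjusted p = 0.00439). ARSB was at 0.79, 0.93 and 1.06 in HD, against 1.47, 1.42 and 1.40 in MD (difference -0.50 ± 0.10, adjusted p = 0.00439). In both genes all HD samples lay below all MD samples. MRC2 had no regular order over the doses, with means of -2.82 in CA, -3.38 in LD, -3.12 in MD and -3.90 in HD.

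Of 5 tested alcohol dehydrogenases, which oxidise ethanol and retinol, 2 were called, both lower in HD (8.10% over all genes), with a list median of -0.46. ADH4 was at -2.75, -3.03 and -2.56 in HD, against -1.90, -2.25 and -2.21 in MD (difference -0.66 ± 0.15, adjusted p = 0.0109), and its means were -0.54 in NEC, -1.16 in CA, -1.42 in LD, -2.12 in MD and -2.78 in HD. ADH6 was at -0.90, -1.14 and -1.01 in HD, against -0.40, -0.53 and -0.66 in MD (difference -0.49 ± 0.12, adjusted p = 0.0163). The means of ADH4 and ADH6 were lower in each group than in the next lower dose. ADH4 was lost without MD replicate 1 (adjusted p = 0.0527), and ADH6 without HD replicate 2 or MD replicate 1 (adjusted p of up to 0.0663). ADH1B and ADH1C differed by -0.46 ± 0.32 and -0.40 ± 0.19 and were not called. ADH1A went the other way without passing, at -7.66, -7.51 and -6.30 in HD, against -6.82, -9.90 and -10.00 in MD. Its last MD value is a well set to 35. The ADH1A difference of 1.75 ± 0.75 (adjusted p = 0.106) became 2.79 without MD replicate 1 (adjusted p = 0.00847) and 1.20 with the late well missing (adjusted p = 0.29).

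Of 4 tested solute carriers and scaffolds 2 were called, both lower in HD (8.10% over all genes), with a list median of -0.54, and of -0.32 with the plate as a block. SLC17A4, a phosphate and urate transporter, was at -4.60, -4.85 and -4.22 in HD, against -3.69, -3.99 and -3.96 in MD (difference -0.68 ± 0.20, adjusted p = 0.0335). SLC4A4, a bicarbonate transporter, was at -0.94, -1.27 and -1.15 in HD, against -0.37, -0.42 and -0.65 in MD (difference -0.64 ± 0.21, adjusted p = 0.0445). SLC17A4 was lost without HD replicate 1 or 2 or MD replicate 1 or 2 (adjusted p of up to 0.129), and SLC4A4 without any sample except MD replicate 3 (up to 0.143). The vitamin C transporter SLC23A1, outside that list, differed by -0.43 ± 0.13 (adjusted p = 0.0337) and was lost in all 6 fits without a sample (adjusted p between 0.0539 and 0.0913). CLDN2, a claudin that forms cation pores, was at 3.24, 2.96 and 3.12 in HD, against 3.47, 3.46 and 3.32 in MD (difference -0.31 ± 0.10, adjusted p = 0.0485), the smallest called difference, and was lost without HD replicate 2 or 3 or MD replicate 1 or 2 (adjusted p of up to 0.184). The connexin GJB1 (-0.62 ± 0.20), the potassium channel KCNJ16 (-0.56 ± 0.14), the calcium channel CACNA1D (-0.46 ± 0.15) and the scaffold USH1C (-0.50 ± 0.13) were also called. Each of these 4 was lost without HD replicate 1 and without MD replicate 1, and CACNA1D, with an adjusted p of up to 0.153, also without HD replicate 2 or 3 or MD replicate 2. GJB1 was lost without any sample except HD replicate 3 (up to 0.149), USH1C also without HD or MD replicate 2 (up to 0.0708), and KCNJ16 in no further fit (up to 0.0705). The adhesion protein E-cadherin, CDH1, differed by -0.26 ± 0.11 and the keratin KRT18 by -0.26 ± 0.11, and neither passed.

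PZP, a protease inhibitor of plasma, had the largest lower difference and was the single call among 9 tested plasma carriers and protease inhibitors (8.10% called lower over all genes), whose median was -0.19, and -0.04 with the plate as a block. It was at -7.12, -5.59 and -5.67 in HD, against -4.66, -4.85 and -4.92 in MD (difference -1.32 ± 0.38, 2.49-fold lower, adjusted p = 0.0276). HD replicate 1 lay far below the other HD samples, and without it the difference was -0.82. The call was lost without HD replicate 1 or MD replicate 1 or 2 (adjusted p of up to 0.0903). OR51E1, an olfactory receptor, was at -3.60, -3.54 and -3.30 in HD, against -2.71, -2.48 and -2.80 in MD (difference -0.82 ± 0.22, adjusted p = 0.0221). The calcium sensor SCGN was at -4.15, -5.18 and -4.66 in HD, against -4.06, -3.68 and -3.81 in MD (difference -0.82 ± 0.22, adjusted p = 0.0227). In SCGN the highest HD and the lowest MD sample nearly met, and the call was lost without HD replicate 2 or MD replicate 2 (adjusted p of up to 0.0868). OR51E1 was lost without HD replicate 1 or 2 or MD replicate 1 or 2 (up to 0.0868).

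Of 7 tested complement genes 1 was called lower (8.10% over all genes). This was C1S, a protease of the classical pathway, at -2.20, -2.03 and -1.78 in HD, against -1.60, -1.47 and -1.57 in MD (difference -0.46 ± 0.14, adjusted p = 0.0371). It was lost without every sample except HD replicate 3 (adjusted p of up to 0.128). The component C5 differed by -0.47 ± 0.16 (adjusted p = 0.0511) and the regulator CFI by -0.24 ± 0.12. The list median was -0.35. Other lower calls were the adhesion protein CEACAM7 (-0.59 ± 0.14), the sialyltransferase ST8SIA4 (-0.52 ± 0.14), the kynurenine aminotransferase CCBL2 (-0.51 ± 0.12), the G protein subunit GNAI1 (-0.46 ± 0.15), the nuclease APEX2 (-0.39 ± 0.11), the epoxide hydrolase EPHX2 (-0.39 ± 0.11) and DNAJC22 (-0.34 ± 0.11). CEACAM7 was lost without HD replicate 1 (adjusted p = 0.0573). The other 6 were all lost without MD replicate 1 and, CCBL2 excepted, without MD replicate 2. Fits without HD replicate 1 also lost ST8SIA4, CCBL2, APEX2 and DNAJC22, those without HD replicate 2 ST8SIA4, GNAI1, EPHX2 and DNAJC22, those without HD replicate 3 GNAI1, and those without MD replicate 3 APEX2 and DNAJC22. The highest adjusted p in these fits was 0.184, for GNAI1.

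**Figure D5:**
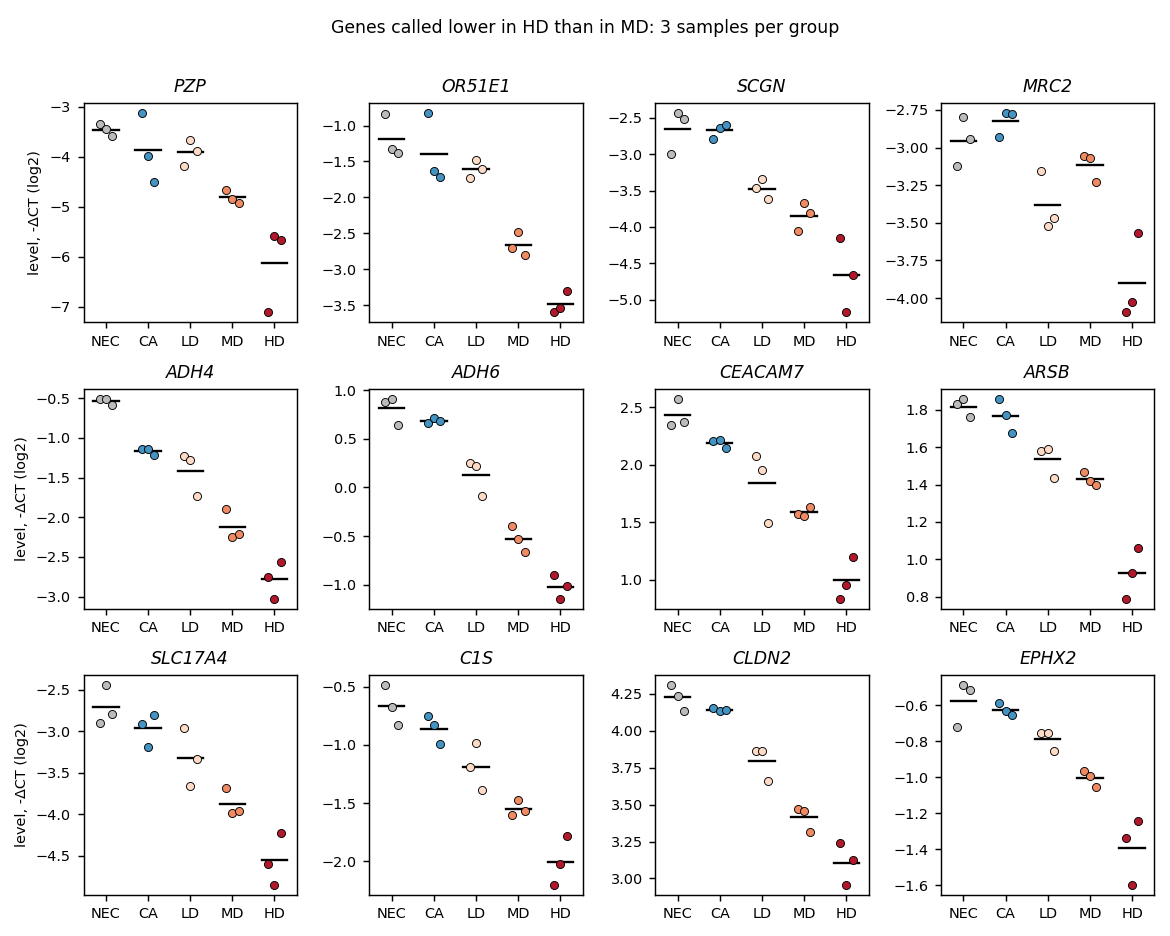
Level (negative ΔCT, log2) of 12 genes called lower in HD than in MD, in the 3 samples of NEC, CA, LD, MD and HD (points) with the group mean (lines). ADH4, ADH6, CLDN2 and EPHX2 are lower in each higher dose group, whereas the MD mean of MRC2 (-3.12) lies above its LD mean (-3.38).

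The fibrinogen genes show how the pooled spread bears on a call. FGA was at 3.74, 3.57 and 3.66 in HD, against 4.31, 4.39 and 4.30 in MD, and its group means were 5.76 in NEC, 5.12 in CA, 4.21 in LD, 4.33 in MD and 3.66 in HD. HD and MD replicates were close together and the groups far apart. The difference of -0.68 ± 0.26 nevertheless did not pass in the model over all 15 samples (adjusted p = 0.0777), whereas it passed in a fit of the 6 HD and MD samples (adjusted p = 0.0116). The other chains FGB and FGG differed by -0.56 ± 0.22 and -0.48 ± 0.26, with an adjusted p of 0.0874 and 0.212 over all samples and of 0.0262 and 0.0288 in that fit. TFPI2, an inhibitor of coagulation proteases, was higher in each HD sample (4.83, 4.71 and 4.70) than in MD (4.30, 4.35 and 4.37), with a difference of 0.40 ± 0.25 (adjusted p = 0.265, and 0.0361 in that fit). FASN, the fatty acid synthase, behaved in the same manner. It was at 3.58, 3.58 and 3.76 in HD, against 4.02, 4.04 and 4.18 in MD, but LD replicate 1 was at -3.11, far from every other sample. The FASN difference of -0.44 ± 1.21 (adjusted p = 0.808) was called without that LD sample (adjusted p = 0.0107).

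Cholesterol synthesis and sterol handling genes were alike in their small differences. None of 9 tested members passed, their differences lay between -0.18 and 0.11, and all their 95% intervals lay between -0.52 and 0.41. The list median was -0.05 between HD and MD (0.04 with the plate as a block and -0.37 without normalisation genes). It was 0.57 for HD and 0.72 for MD when each was set against CA. CYP51A1, which removes a methyl group from lanosterol, was at 4.90, 4.90 and 4.83 in HD, against 4.86, 5.02 and 5.01 in MD, and its mean in CA was 4.59. INSIG1, a sterol sensor, averaged 4.09 in HD and 3.98 in MD, with 3.26 in CA. Over all tested genes, the 95% interval lay within a 2-fold difference for 218 and within 1.5-fold for 116.

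Other genes far from CA were not called between the doses. LOXL2, which crosslinks collagen, averaged -3.09 in NEC, -2.49 in CA, -1.57 in LD, -0.76 in MD and -0.55 in HD (difference 0.21 ± 0.20, 95% interval -0.23 to 0.65). DCLK1, a microtubule-associated kinase, averaged -4.97 in NEC, -4.47 in CA, -3.55 in LD, -3.10 in MD and -2.60 in HD (difference 0.50 ± 0.24, adjusted p = 0.156). Fibronectin, FN1, averaged 4.49 in NEC, 4.16 in CA, 4.02 in LD, 2.83 in MD and 2.31 in HD (difference -0.51 ± 0.19, adjusted p = 0.0673). CDCP1, a membrane protein of adhesion signalling, differed by 0.81 ± 0.29 (adjusted p = 0.061). The 95% interval reached past a 2-fold difference for CDCP1 (0.19 to 1.43) and DCLK1 (-0.03 to 1.03). In further genes the MD mean lay outside CA and HD without a call. Aldolase ALDOA averaged 5.68 in CA, 6.08 in MD and 5.75 in HD, and the zinc transporter SLC39A5 averaged -5.81 in CA, -6.69 in MD and -6.24 in HD (differences between HD and MD of -0.33 ± 0.16 and 0.46 ± 0.32). The ALDOA values of HD were 5.26, 5.89 and 6.08, and without HD replicate 1, the lowest, the difference was -0.09. Without HD replicate 3, the highest, the ALDOA difference was -0.50 and passed (adjusted p = 0.0395).

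Of 5 genes of the NRF2 and metal response none was called, with a median of -0.13 (0.05 with the plate as a block), and SQSTM1, an autophagy receptor, differed by 0.17 ± 0.13. The metallothionein MT2A was near the detection limit in all groups, with a well set to 35 in 1 HD and 1 MD sample, and differed by -0.51 ± 0.59. CFAP53, a protein of cilia, gave no product in HD replicate 1, and differed by 1.49 ± 0.69 with the remaining 2 HD samples (adjusted p = 0.136). The interferon-induced genes IFIT1 and IFI6 varied more between replicates than most. IFIT1 was at -2.13, -2.24 and -1.47 in HD, against -0.59, -0.65 and -2.0 in MD, so that the groups overlapped through MD replicate 3. Its difference was -0.86 ± 0.41 (adjusted p = 0.136), and none of the 3 tested interferon genes was called.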

How the data were processed

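RNA of A549 cells was measured on customised RT2 profiler PCR arrays (Qiagen) by quantitative RT-PCR. Per the study's methods, the authors exported 1 threshold cycle (CT) per well, with nd where no fragment was found, and chose 2 normalisation genes with NormFinder. The deposited normalised matrix gives ΔCT as log2 values in which lower stands for more RNA. It could be rebuilt from GPN1 and TMEM184C within 3.95e-09 cycles. The authors had filled 25 nd wells, 4 of them in HD or MD, and had set 10 wells above cycle 35 to 35, 4 of them in HD or MD. Another deposited table holds the authors' own fold changes over CA and was not used.

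Wells marked nd were treated as missing, and wells set to 35 were kept. A gene was tested if HD and MD each had at least 2 detected samples, and the normalisation genes were not tested. All 15 samples entered a linear model that gave each group its own mean, fitted by limma 3.58.1 (lmFit, then eBayes) in R 4.3.3. Tests were two-sided, with Benjamini-Hochberg adjustment over 284 genes and a threshold of 0.05. SEs and 95% intervals come from the pooled spread of all 5 groups, so the spread of LD, CA and NEC enters them. The procedure was tested on simulated data with independent noise per gene. Those data held no plate effect and no late sample, so that test cannot show how either bears on the calls. The labels name separate biological replicates for a dose, but all of a dose shared 1 plate number. The paper describes fewer exposed cultures per plate than 3 replicates of 2 pooled wells need, so a number may cover more than 1 plate. How a dose varies between plates was not measured. The number of samples limits the precision, as does a CT near 35 for late genes.

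Genes were named by a rule: the 15 largest calls in each direction, for each gene list the 4 members with the smallest adjusted p, genes with nd or late wells, up to 10 genes far from CA that were not called and up to 10 whose MD mean lay outside CA and HD, and those the study's text names. Further genes, the remaining calls among them, were named after their values were seen. A few genes that the rule takes are not reported here. Members, lists and rule were chosen with earlier results of these data known. Alternatives covered normalisation, nd and late wells, detection filters, samples in the fit, plate, variance model and single samples left out. The alternative with the plate as a block and HD replicate 1 left out was added after seeing the data. Promoters came from RefSeq (GRCh38.p14, first listed start per symbol). Plots were made in Python 3.11.15 with matplotlib 3.10.9.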

Additional observations from a re-analysis of the deposited data

How the results depend on the processing

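The number of genes called between HD and MD was 58 (35 higher and 23 lower in HD). All 58 kept their sign under each other normalisation. Another normalisation moves all genes by about the same amount. The median difference was -0.36 without normalisation genes, against -0.04 with them. Called genes were selected for a large difference, so the kept signs were largely fixed in advance. Without normalisation genes 49 were called, 12 higher and 37 lower, so that 24.5% of the calls were higher, against 60.3% with them. With GPN1 alone 34 were called (23 higher and 11 lower), with TMEM184C alone 65 and with the panel median 75. The plate block gave 11 calls (11 higher and 0 lower), and 63 genes had an unadjusted p under 0.05. Without NEC the plate block gave 0 calls by limma (0 higher and 0 lower), with 29 genes at an unadjusted p under 0.05. Of 56 called genes 55 kept their sign, a count that their selection for a large difference largely fixed. The exception was PSG4, at -0.54 (adjusted p = 0.601). The plate block without HD replicate 1 gave 10 calls (10 higher and 0 lower). In fits that left out a single HD or MD sample, between 25 and 68 genes were called, between 18 and 44 higher and between 4 and 33 lower. Filled nd wells, late wells as measured or missing, and a single detected sample per group all left 58 calls. Fits of HD and MD alone, without NEC or without LD replicate 1 gave 49, 67 and 54 calls, limma with trend and robust estimation 64, and a linear model without moderation 42. Deviations of same-numbered HD and MD samples had correlations of 0.07, -0.03 and -0.07 across genes, against -0.24 to 0.27 for the other pairs. These deviations come from means of 3 samples, so they cannot decide whether the numbers pair the samples. The replicate block gave 51 calls. Arrays give no read depth. The median half-width of the 95% interval was 0.36 with 3 samples per group. It refers to an unadjusted p of 0.05, and at that spread a call by adjusted p needed a larger difference.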
